A study of Homo sapiens with 3 samples.

Results

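The minichromosome maintenance proteins MCM2 to MCM7 are the 6 subunits of the replicative helicase, and the data described here are the peaks that HA-tagged HNRNPA0 left on their transcripts. Peaks were taken from the 3 replicate lists by the Ensembl gene ID that each peak name carries. All 6 genes had at least 1 peak, and together they held 61 of the 48938 distinct peaks, which were 26, 20 and 15 peaks in replicates 1, 2 and 3. HEK293T, a human embryonic kidney line that carries the SV40 large T antigen, labelled WT in genotype, received 750 ng of a vector for the tagged protein in each 15 cm dish. RNA was bonded to protein with UV light of 254 nm at 0.3 J/cm2, recovered on anti-HA beads, trimmed with RNase I and sequenced, a method called easyCLIP. The 3 replicates form 1 group with no control library used here, they were told apart by adapter barcodes and pooled after that ligation, and nothing states that they came from separate cultures, so the spread between them may be technical. The tagged protein came from a transfected vector on top of the cell's own HNRNPA0, a small hnRNP that binds RNA and is closely related to HNRNPA1.

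The MCM2-7 ring is loaded onto replication origins by the origin recognition complex with CDC6 and CDT1. It becomes an active helicase when CDC45 and the GINS complex join it, after phosphorylation by the kinase CDC7 with its partner DBF4. The subunits act as a ring with 1 copy of each, and their genes are induced together as cells prepare for S phase. The amount of each transcript in these cells was not used here, so peak and read numbers do not separate binding from abundance.

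Distinct peaks numbered 15661, 15486 and 17791 per list. Peaks outside the mitochondrial genome had summed read numbers of 100038, 99141 and 114203, where the read number is the whole number that ends each peak name, taken here to count the reads in the peak since no header names it. Of these sums the 6 MCM genes took 0.190%, 0.134% and 0.0919%. Reads outside peaks were not analysed here. No peak of the MCM genes carried a further gene ID, and no peak on the opposite strand or of another gene ID lay inside their gene intervals.

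MCM4 held most of the signal. It was the one MCM gene with regions found in all 3 replicates, of which it had 2, and it held 63.7%, 50.4% and 67.6% of the summed read number of the 6 genes in replicates 1, 2 and 3 (60.6% ± 9.04, SD, n = 3). A region is a set of peaks from different lists that overlap by at least 1 bp on the same strand. Thus 1 of the 6 MCM genes had a region in all 3 replicates, against 22.2% of the 6583 gene IDs with a peak. Of all protein-coding genes 6.02% had such a region, and 6.41% of those within the range of length of the 6 genes. A peak in any list was present for 6 of 6 MCM genes and for 27.6% of protein-coding genes. Merging gave 47 MCM regions, of which 2 were found in all 3 replicates (4.26%, against 6.23% of all regions) and 10 in exactly 2 (21.3%, against 12.6%).

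MCM4, whose N-terminal tail is a substrate of the CDC7 kinase, had summed read numbers of 121, 67 and 71 in replicates 1, 2 and 3. MCM2, which binds histones through its N-terminal part, had 17, 28 and 8. MCM7 had 21, 16 and 14. No replicate of MCM4 fell within the range of any other subunit. MCM6, which with MCM4 and MCM7 forms a subcomplex that unwinds DNA in vitro, had 12, 14 and 9. MCM3, which contacts the loading machinery through its C-terminal part, had 19, 5 and 3. MCM5, which with MCM2 forms the gate through which DNA enters the ring, had 0, 3 and 0, so it was listed in replicate 2 alone.

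**Figure D1:**
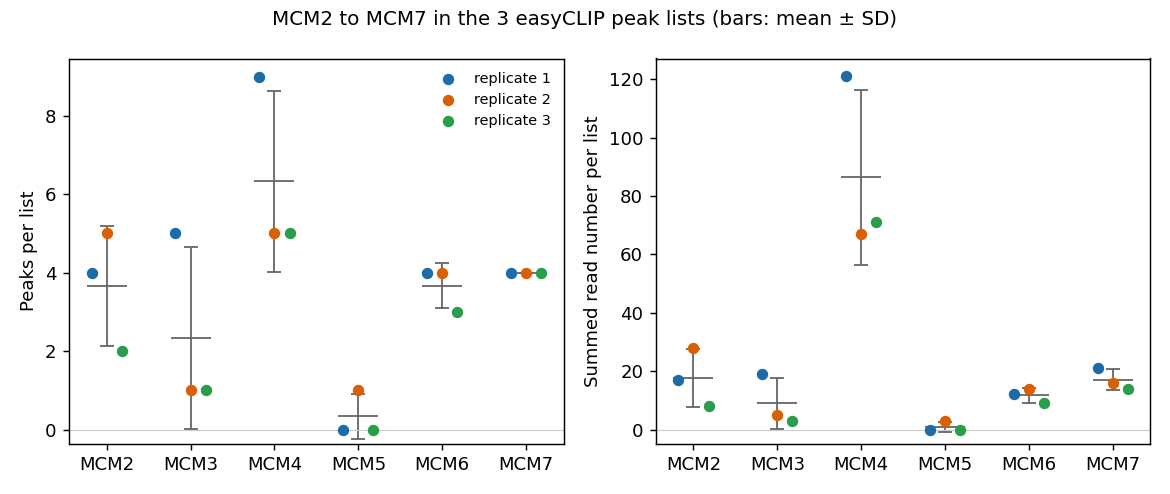
Peaks per list (left) and summed read number per list (right) for MCM2 to MCM7, with a point for each replicate and a bar for the mean ± SD (n = 3). MCM4 lies between 67 and 121 in summed read number, above every point of the other 5 genes, of which the highest is 28.

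By mean summed read number the order was MCM4 with 86.3 ± 30.1, MCM2 with 17.7 ± 10.0, MCM7 with 17.0 ± 3.61, MCM6 with 11.7 ± 2.52, MCM3 with 9.0 ± 8.72 and MCM5 with 1.0 ± 1.73 (SD, n = 3). From MCM2 down, each gene overlapped the next in its range over the replicates. Within the lists, MCM2 exceeded MCM7 in 1 of 3 replicates, and without replicate 2 its mean was 12.5 against 17.5 for MCM7. MCM7 exceeded MCM6 in 3 of 3, by 5.33 ± 3.51, and MCM3 in 3 of 3, by 8.0 ± 5.20 (SD of the paired difference, n = 3). The range of MCM5 lay below those of MCM2, MCM6 and MCM7. MCM4 exceeded MCM2 by 68.7 ± 32.9 and MCM7 by 69.3 ± 26.7, and it was higher in 3 of 3 replicates against each of the other 5 (SD of the paired difference, n = 3). Of the 15 pairs of subunits, 8 had ranges that did not overlap, 5 of them with MCM4. An exact two-sided sign-flip permutation test over the 3 replicates cannot go below p = 0.25, which was the value for MCM4 against each other subunit, with an adjusted p of 0.341 over the 15 pairs, so no pair passed 0.05.

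Set against the length of the gene interval, introns included, MCM4 again came first in read number, while its place in peak number depended on which peaks were counted. The interval of MCM7 is the shortest at 8670 bp and that of MCM5 the longest at 54892 bp. Summed read numbers per kb of interval were 5.01 ± 1.75 for MCM4, 1.96 ± 0.416 for MCM7, 0.735 ± 0.417 for MCM2, 0.434 ± 0.421 for MCM3, 0.317 ± 0.0684 for MCM6 and 0.0182 ± 0.0316 for MCM5 (SD, n = 3). Mean peaks per 10 kb were 4.61 for MCM7 and 3.68 for MCM4, and between 0.0607 for MCM5 and 1.53 for MCM2 in the others. MCM7 had 4 peaks in every replicate, against 9, 5 and 5 for MCM4, so that per 10 kb MCM4 came first in replicate 1, with 5.23 against 4.61. In the 50% of each list with the lowest p-values, MCM4 had 3.68 peaks per 10 kb and MCM7 2.31, and at a read number of at least 5 MCM4 had 3.68 and MCM7 0.769. Over the 3 lists the mean read number per peak was 13.6 in MCM4 and 4.25 in MCM7.

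**Figure D2:**
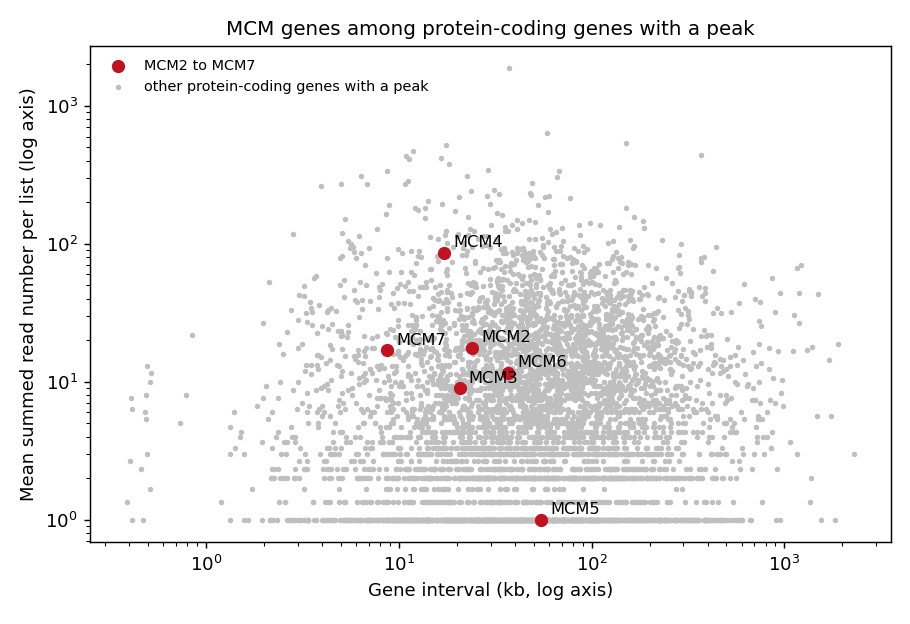
Mean summed read number per list against the length of the gene interval, both on log axes, for MCM2 to MCM7 (large named points) and the other protein-coding genes with a peak (small points). MCM4 lies near the top of the cloud at its length, MCM2, MCM3, MCM6 and MCM7 lie inside it, and MCM5 lies on its lower edge.

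Among 5524 protein-coding genes with a peak, MCM4 ranked 144 by mean summed read number, and 2.64% of these genes lay at or above it. MCM2 ranked 1235, MCM7 1289, MCM6 1745 and MCM3 2089, all above the median gene, which had 5.33. The place of MCM3 rested on replicate 1, without which its mean was 4 and it ranked 3179 of 5042 genes, below the median of 6.5. MCM5 ranked 4525, at the lowest value a listed gene can take, a single peak with a read number of 3 in 1 list. By peak number MCM4 ranked 597 and MCM7 1172.

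The MCM4 gene lies on chromosome 8 from 47960941 to 47978160 (hg38), with its peaks on the plus strand. Its signal was gathered near the 3' end of the gene. The final 10% of the interval held 80.2%, 80.6% and 81.7% of the read number of MCM4 in replicates 1, 2 and 3, with 5, 3 and 3 peaks. All of these peaks lay within 1108 nt, from 47976789 to 47977896, which ends 264 nt before the 3' end of the gene. Over all MCM4 peaks 11 of 19 were centred in the final 10%, where 32.8% of all peaks in protein-coding genes were centred. A site found in several lists counts once per list in both. The share of read number in the final 10% was not computed over all genes. Positions are given along the gene interval only, since no exon annotation was used.

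The strongest MCM4 region ran from 47976919 to 47977061 on chromosome 8 and was found in every replicate. Its peaks had read numbers of 40, 36 and 37 in replicates 1, 2 and 3 (37.7 ± 2.08, SD, n = 3), and the authors' p-values for them were 3.21e-36, 1.37e-33 and 2.01e-36. The short stretch that each deposited line marks inside the peak lay at 47977001 to 47977004 in replicate 1, at 47976997 to 47977000 in replicate 2 and at 47976992 to 47976995 in replicate 3. The centres of these stretches differed by at most 9 nt between replicates. In read number the peaks ranked 175, 192 and 208 among the nuclear peaks of their lists. Among 2337 nuclear regions found in all 3 replicates the region ranked 119 by mean read number, where the median region had 8.

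The second region found in every replicate ran from 47977800 to 47977896, centred 312 nt from the 3' end of the gene. Its read numbers were 14, 11 and 12 in replicates 1, 2 and 3 (12.3 ± 1.53, SD, n = 3), and its marked stretches were centred within 8 nt of each other. It ranked 692 of the 2337 nuclear regions found in all 3 lists. Relative to their means, the SDs of both regions were smaller than that of the summed read number of the gene. Both regions were centred in the final 10% of the gene, as were 42.8% of such nuclear regions in protein-coding genes.

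A pair of further MCM4 regions in the same stretch was found in 2 replicates each. That from 47976789 to 47976918 had read numbers of 23 in replicate 1 and 7 in replicate 2, and its peak in replicate 1 ends at the base before the strongest peak begins, so both may hold the same reads. That from 47977697 to 47977760 had 11 in replicate 1 and 9 in replicate 3, with marked stretches centred within 2 nt. A peak from 47977323 to 47977368 with a read number of 9 was listed in replicate 1 alone.

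**Figure D3:**
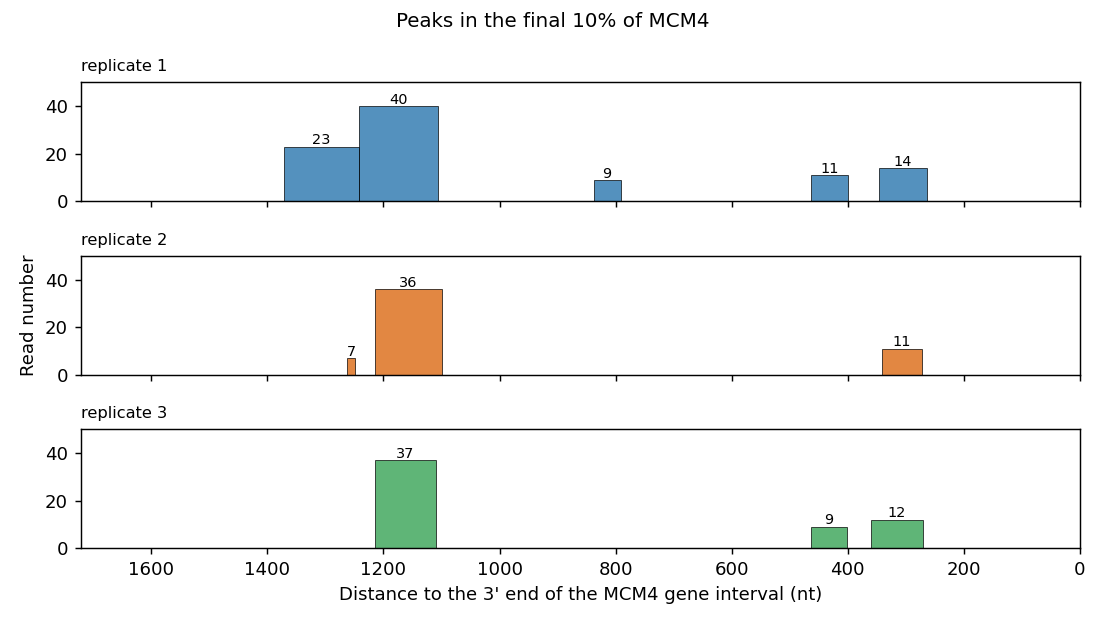
Peaks in the final 10% of MCM4, as bars that span each peak, against distance to the 3' end of the gene in nt, with the read number as height and 1 panel for each replicate. The bars of 40, 36 and 37 stand at the same place in all 3 panels, as do those of 14, 11 and 12.

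Outside this stretch MCM4 had 8 peaks with read numbers of 5 to 7, and none overlapped a peak of another replicate. There were 3 of them in the first 10% of the gene, at 47962058 to 47962104 and 47962306 to 47962345 in replicate 3 and at 47962133 to 47962194 in replicate 1. Replicate 1 alone had 3 peaks at 80.1% to 85.8% of the interval. Summed outside the stretch, read numbers were 24, 13 and 13. The lowest read number of any MCM4 peak was 5, 6 and 6 in replicates 1, 2 and 3. Over the 3 lists each of the other 5 genes had peaks down to 3, the lowest in the lists. In replicate 2 alone the lowest was 5 in MCM3 and 4 in MCM7. Among nuclear gene IDs with a summed read number of at least 60 and below 130 in a list, 54.2% listed a peak of 3, and of those with at least 10 and below 30, 78.9% did. No peak below 5 was listed by 32.9% of the former and 10.3% of the latter. Whether MCM4 lacked weaker peaks or the peak caller left them out was not tested.

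**Figure D4:**
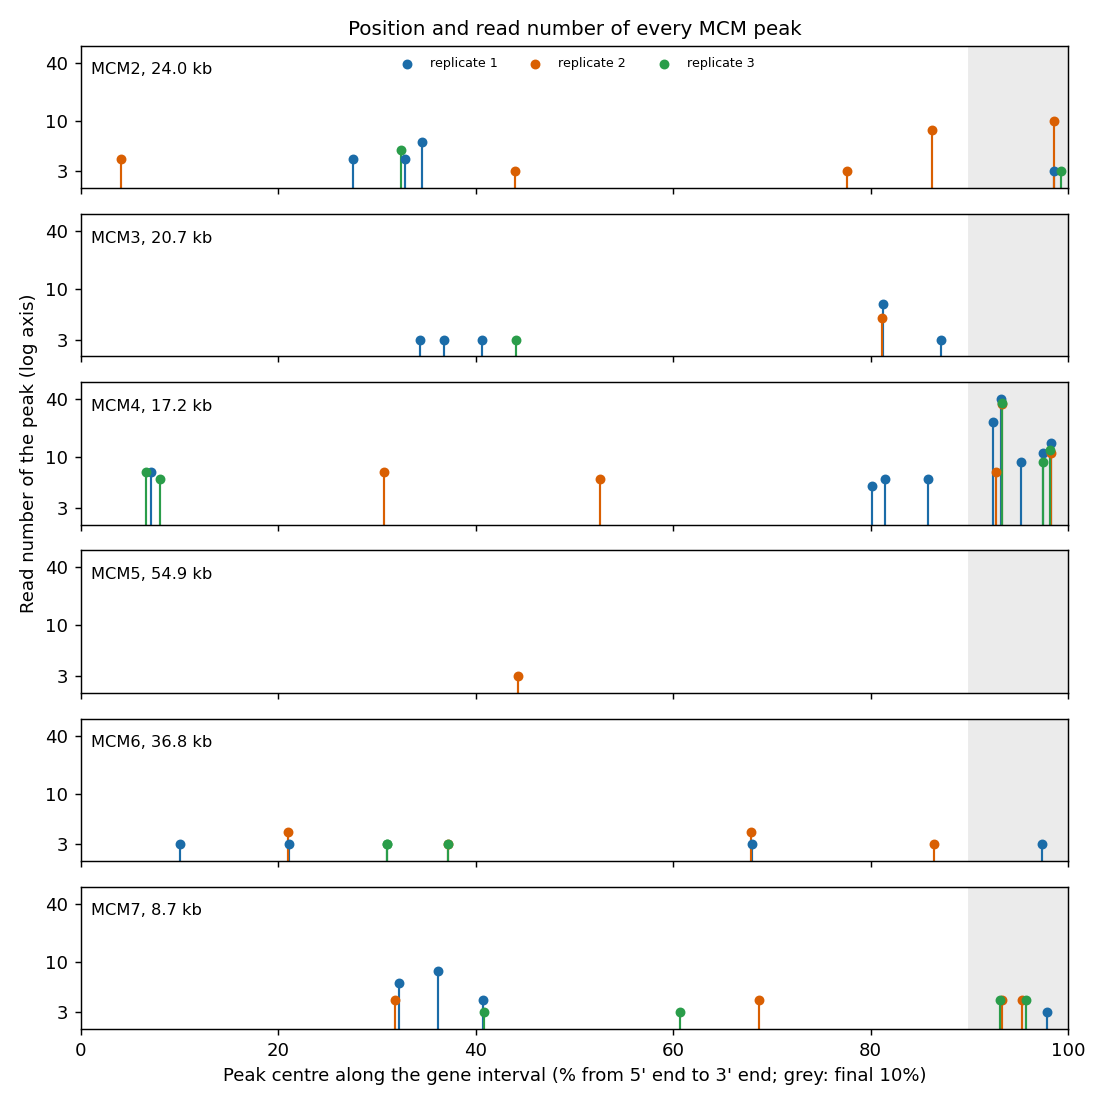
Centre of every MCM peak along its gene, in % of the interval from the 5' end to the 3' end, against the read number of the peak on a log axis, with 1 panel for each gene and a colour for each replicate. The tall peaks of MCM4 lie in the final 10% (grey). Peaks of MCM2 lie from 4.04% to 99.3% of the interval and those of MCM6 from 10.0% to 97.4%. Those of MCM3 lie from 34.4% to 87.1% and those of MCM7 from 31.9% to 97.9%. Read numbers in these 4 genes are 3 to 10.

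Beside MCM4, the other 5 subunits had weak and scattered peaks. Of their 42 peaks 22 had a read number of 3, which is 52.4%, against 43.5% ± 1.75 of all peaks in the lists (SD, n = 3). A single one reached 10, against 8 of the 19 in MCM4. None of their 34 regions was found in all 3 replicates and 8 were found in 2, which are 2 each in MCM2 and MCM7, 3 in MCM6 and 1 in MCM3. With 2 replicates sufficing, 5 of 6 MCM genes held a region, against 12.6% of protein-coding genes. Gene IDs with 7 to 12 peaks over the 3 lists, the range of MCM2, MCM3, MCM6 and MCM7, had a region in all 3 lists in 33.0% of cases and in 2 or more lists in 78.5%.

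Peaks with a read number of 3 or 4 lay in a region of 2 or more replicates in 12 of 34 cases in these 5 genes, against 20.8% of such peaks over the nuclear genome. Over all read numbers it was 16 of 42, against 36.3%. In MCM4 all 8 peaks of 10 or more lay in such a region, where 86.7% of nuclear peaks of that size did, and 2 of 11 peaks of 5 to 9 did, where 53.1% of nuclear peaks of 5 to 9 did.

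MCM2 lies on chromosome 3 from 127598411 to 127622436, on the plus strand, and had 4, 5 and 2 peaks. Its strongest peak, from 127621988 to 127622178 in replicate 2, had a read number of 10 and an authors' p-value of 2.08e-07, and ended 258 nt before the 3' end of the gene. Replicate 1 listed a peak of 3 within it, from 127622058 to 127622111, and replicate 3 listed a peak of 3 from 127622224 to 127622304, which lies past its end and does not overlap it. All 3 lists thus had a peak in the last 500 nt of MCM2, but at positions that did not overlap in all of them. The other region in 2 lists, from 127606147 to 127606321, had 4 in replicate 1 and 5 in replicate 3, with marked stretches centred 84 nt apart.

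MCM7 lies on chromosome 7 from 100092728 to 100101397, with peaks on the minus strand, so that its 3' end is at the lower coordinate. Its strongest peaks were in replicate 1, from 100098224 to 100098293 with a read number of 8 and from 100098578 to 100098621 with 6. Neither overlapped a peak of another list. A region from 100093292 to 100093339 had 4 in replicates 2 and 3, and another from 100097842 to 100097881 had 4 in replicate 1 and 3 in replicate 3. In the final 10% of the gene 5 of the 12 peaks were centred, with read numbers of 3 or 4, where 32.8% of all peaks in protein-coding genes were centred. The region in replicates 2 and 3 at 100093292 to 100093339 counts once per list here. The 5' end of MCM7 overlaps AP4M1, a subunit gene of an adaptor protein complex, for which no peak was listed.

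An intron of MCM7 carries the microRNA genes MIR25, MIR93 and MIR106B, which are cut from the same precursor. Their main mature strands are shown to mark where the host transcript holds folded hairpins and how its microRNAs fall by seed, with bases 2 to 8 in capitals. They come from RefSeq (GRCh38.p14), are on the minus strand, and read 5' to 3'.
hsa-miR-106b-5p: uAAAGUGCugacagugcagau
hsa-miR-93-5p: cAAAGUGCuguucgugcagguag
hsa-miR-25-3p: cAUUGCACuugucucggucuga
The first, at chr7:100094043-100094063, and the second, at chr7:100093815-100093837, share a seed, and the third, at chr7:100093571-100093592, has another. No peak of any list overlapped these strands, nor the hairpins of MIR25 and MIR106B. The nearest MCM7 peak was the one of read number 4 in replicate 3 from 100093306 to 100093339, which lies 220 nt downstream of the MIR25 hairpin.

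MCM6 lies on chromosome 2 from 135839626 to 135876443, on the minus strand, and had 4, 4 and 3 peaks. No MCM6 peak exceeded a read number of 4. Its 3 regions in 2 lists lay far apart, at 135851402 to 135851498 with 3 and 4 in replicates 1 and 2, at 135868629 to 135868760 with 3 and 4 in the same replicates, and at 135862727 to 135862740 with 3 each in replicates 2 and 3. The last is 14 nt wide, with marked stretches centred 1 nt apart. A single one of the 11 MCM6 peaks, with a read number of 3, lay in the final 10% of the gene, against 32.8% of all peaks in protein-coding genes.

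MCM3 lies on chromosome 6 from 52264015 to 52284742, on the minus strand, and had 5, 1 and 1 peaks. Its region in 2 lists, from 52267867 to 52267973, had read numbers of 7 in replicate 1 and 5 in replicate 2 and lay 3852 nt from the 3' end. The 5 remaining MCM3 peaks had a read number of 3, 4 of them in replicate 1, and none lay in the final 10%. MCM5 lies on chromosome 22 from 35400140 to 35455031, and its only peak, in replicate 2, ran from 35424419 to 35424480 with a read number of 3 and an authors' p-value of 0.0261. Both lists without an MCM5 peak show only that none passed the peak caller there.

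Of 46 other genes of DNA replication, 34 had a peak in some list, which is 73.9%, against 27.6% of protein-coding genes. A region in all 3 replicates was present for 6, which is 13.0%, against 6.02% of protein-coding genes. Of the 34 with a peak these 6 are 17.6%, against 22.2% of gene IDs with a peak. With an overlap of 50% of both peaks, 3 of the 46 had such a region, which is 6.52%, against 3.70% of protein-coding genes. The 6 are ORC6, GINS4, CDC7, TOPBP1, CLSPN and RPA1, with 1 region each. None of the 46 had a mean summed read number above that of MCM4. Among 9 genes of helicase loading, such as the origin recognition complex, 7 had a peak and ORC6 alone a region. ORC6 had summed read numbers of 80, 100 and 55, held almost wholly by a single strong peak whose highest read number was 76.7 ± 22.5 (SD, n = 3). These sums, which overlap those of MCM4 in range, came from 2, 1 and 1 peaks.

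Among 12 genes that turn the loaded ring into an active helicase, 10 had a peak and 3 a region in all 3 replicates. Over all protein-coding genes these shares were 27.6% and 6.02%. GINS4, a subunit of GINS, had summed read numbers of 24, 7 and 13. CDC7, the kinase that acts on the MCM subunits, had 14, 14 and 23. TOPBP1, a scaffold for the assembly of CDC45 and GINS, had 26, 39 and 22. All of these sums lie below that of MCM4 in the same replicate.

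Among 4 other genes with MCM in their name, MCM8 had summed read numbers of 7, 14 and 6. MCM10, an activator of the helicase, had 0, 10 and 6, and the MCM-binding protein gene MCMBP 20, 26 and 4. MCM9, the partner of MCM8, had no listed peak. None of these 4 genes had a region in all 3 replicates. Of 4 genes of fork protection all had a peak, and CLSPN, the checkpoint mediator claspin, had 24, 19 and 11 with a region in every list. Of 17 genes of DNA synthesis 10 had a peak, and RPA1, the large subunit of the single-strand binding protein RPA, had 16, 11 and 14 with a region in every list. Over all protein-coding genes 27.6% had a peak and 6.02% a region in all 3 replicates. RFC3, a clamp loader subunit, had 35, 37 and 55 and POLA1, the catalytic subunit of polymerase alpha, 37, 19 and 72, both spread over long genes of 159229 and 303069 bp with no region in all 3 lists.

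**Figure D5:**
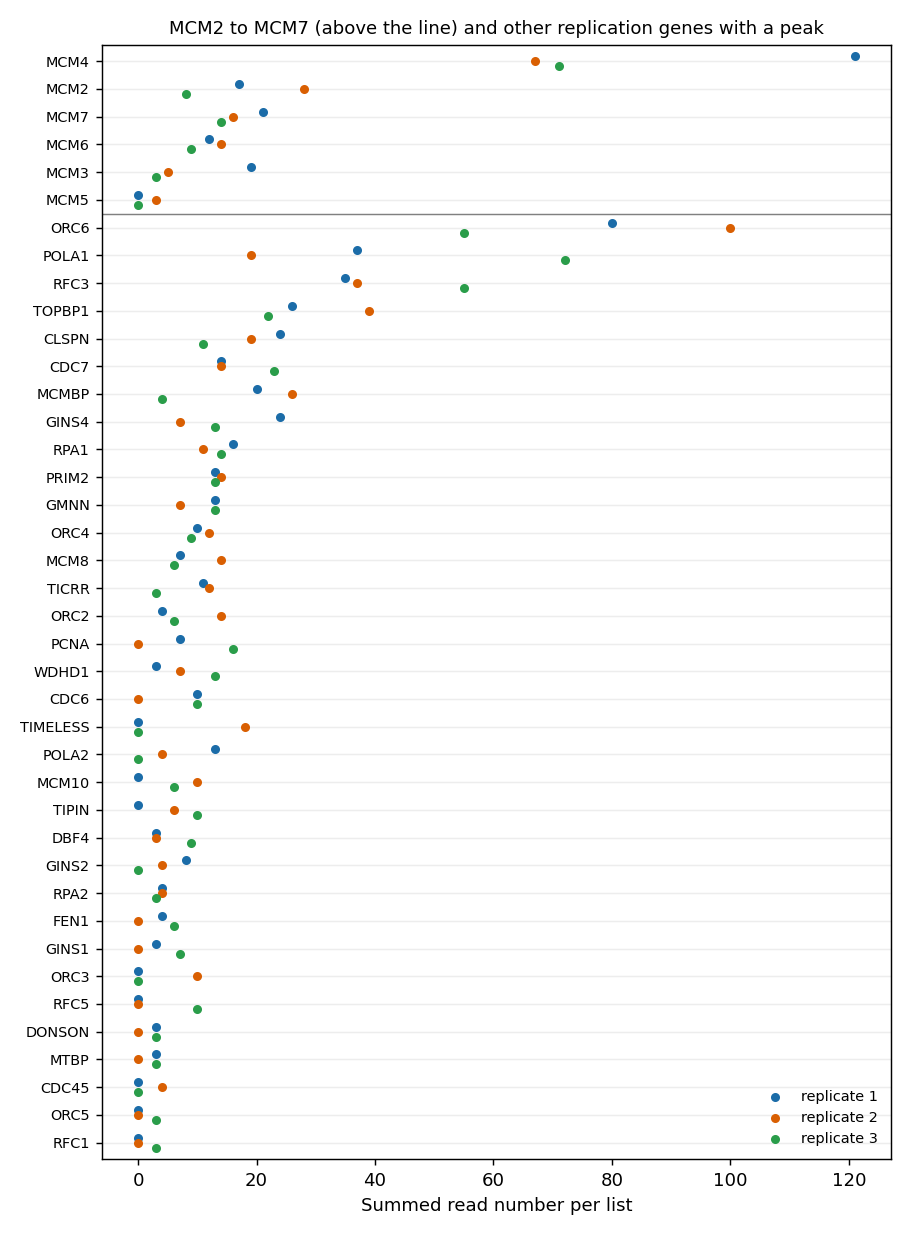
Summed read number per list for MCM2 to MCM7 (above the line) and for the 34 other replication genes with a peak (below it), with a point for each replicate. MCM4 and ORC6 have all points at 55 or more, and every other gene has a point at 37 or below.

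The genes nearest to MCM4 in mean peaks and mean summed read number, by distance on log10 scales over the 3 replicates, were VMA21, RPSA and CALU. VMA21, an assembly factor of the vacuolar ATPase, had summed read numbers of 67, 94 and 104 from 5, 5 and 9 peaks. RPSA, a ribosomal protein gene counted here with 3 gene IDs, had 84, 83 and 95 from 5, 8 and 5 peaks. CALU, the gene of calumenin, a calcium-binding protein of the secretory pathway, had 131, 48 and 96 from 10, 3 and 6 peaks. Each had 2 regions in all 3 replicates, as MCM4 did. Their highest read numbers were 26.0 ± 4.36, 27.0 ± 7.55 and 27.3 ± 5.69, against 37.7 ± 2.08 for MCM4 (SD, n = 3).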

How the data were processed

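For each replicate the authors deposited a headerless BED file of peaks, so peaks were called per sample. Positions use hg38, and the tools listed are bedtools and deepTools, per the submitters' processing notes. Which aligner, peak caller and settings were used, and whether molecular identifiers were collapsed, is not given in the sources used here. The deposited p-value of each peak was used as given. The whole number ending each deposited peak name was taken to count its reads, which no header states.

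Lines with the same interval and strand were counted once. Gene IDs were tied to RefSeq genes (GRCh38.p14) holding at least 90% of their peak centres, and 5737 of 6583 matched 1 gene, all 6 MCM genes among them. Peaks of different lists overlapping by at least 1 bp on a strand were merged with Python 3.11.15, pandas 2.3.3 and numpy 2.4.6. This step was tested on simulated peaks, nearly all from sites set well apart, so merging of close peaks was hardly tested. Pairs of MCM genes were compared by exact two-sided sign-flip permutation tests (scipy 1.17.1), adjusted by Benjamini-Hochberg over 15 pairs. No test was run between samples, which form 1 group. Alternatives were a lower p-value, a read number of at least 5, an overlap of 50% of both peaks, 2 replicates sufficing, joined touching peaks and each replicate left out.

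The rule for named genes took the 6 members, listed replication genes with a region in all 3 replicates, the 3 genes nearest to MCM4 in peaks and read number, overlapping genes and the microRNAs of MCM7. MCM8, MCM9, MCM10, MCMBP, RFC3 and POLA1 were named after their values were seen. Members and lists were chosen with earlier results of these data known. Base composition of the peaks was not analysed here.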

Additional observations from a re-analysis of the deposited data

How the results depend on the processing

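MCM4 remained the one MCM gene with a region in every list when the 50% of each list with the lowest p-values, peaks with a read number of at least 5, an overlap of 50% of both peaks, or joined touching peaks were used, and it held 2 regions each time. The first 3 of these settings can only remove regions, so the other 5 genes could gain none there. No MCM4 peak was lost in the stricter 50% or at a read number of at least 5, so its 2 regions had to stay in both. Its share of the pooled MCM read number, 60.5%, ranged from 58.0% to 82.5% over all settings. MCM peaks per replicate fell to 11.3 in the stricter 50% and to 9 at a read number of at least 5, against 20.3 with all peaks. With 2 or more replicates sufficing, there were 12 MCM regions in 5 genes, 6 of them in the final 10% of the gene. No matching figure for regions of 2 or more lists was computed over all genes, so the 6 of 12 stands alone. At this setting 18 of the 46 replication genes held a region, against 12.6% of protein-coding genes. With an overlap of 50% of both peaks 3 of the 46 held a region in all 3 lists, against 3.70% of protein-coding genes. With each replicate left out, a region needed 2 lists by construction, and MCM regions numbered 4 to 7, in 3 to 4 genes, with 3 to 4 in the final 10%, while 10 to 11 replication genes held a region. Shares over all genes were not counted with a replicate left out. Of 114 alternative values for single MCM genes 92 stayed within the set limits and 22 moved. For a mean per replicate the limit was the SD over the 3 replicates, a shift that leaving out a replicate cannot reach. Means with a replicate left out could thus not move, and the 92 is no measure of stability. No paired analysis was possible between groups of samples because the 3 replicates form 1 group, and genes were paired within each list instead. A read number of 3 is the lowest in the lists, and a gene with no listed peak may still hold reads.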

Other observations

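The genes next to the MCM genes, named here after their values were seen, differed widely. PRKDC, the catalytic subunit of the DNA-dependent protein kinase, whose interval ends 804 bp from that of MCM4, had 10, 7 and 13 peaks in replicates 1, 2 and 3 with summed read numbers of 133, 101 and 156, and 2 regions in all 3 lists. UBE2V2, a ubiquitin-conjugating enzyme variant on the other side of MCM4, had 10, 27 and 26, with 1 such region. COPS6, a COP9 signalosome subunit gene next to MCM7, had 3, 0 and 0. HMOX1 and RASD2, on either side of MCM5, had no listed peak.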
